A study of Drosophila melanogaster with 16 samples.

Results

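The comparison set fasted *ERK7* mutant larvae of *Drosophila melanogaster* against fasted control larvae, in 8 of the 16 whole-larva RNA libraries of the study, 4 for each genotype. It covered all 10459 genes of the deposited table, and the description below covers functions other than lipid metabolism. The mutants carried a small deletion in *ERK7* made with CRISPR/Cas9, which shifts the reading frame, in a single line. The controls, labelled wild type, were a line from the same screen in which no mutation of the gene was found. Both lines had been backcrossed into the w1118 background and kept as balanced stocks, and male larvae were used according to the methods of the study. By the sample labels, larvae were kept on standard food until 72 h after egg laying. They were then placed for 6 h on buffered agarose without nutrients, whereas their fed counterparts were given fresh food. The fed libraries are used below beside the fasted values and in the shared estimate of the spread. The methods name a later age at transfer, the same for both genotypes. How many larvae each RNA-seq library held is not given in the sources used here. The study reports that mutant larvae grew faster and formed pupae earlier than controls. Larvae of equal age therefore need not have been at an equal stage. Whether stage took part in the differences below, such as those of cuticle, tanning, ecdysone and storage protein genes, was not tested.

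ERK7 is an atypical mitogen-activated protein kinase, known in fly cells for dispersing the exit sites of the endoplasmic reticulum (ER) when amino acids are lacking. Fasting lowers insulin and TOR signalling, which holds back translation and cell growth and releases autophagy. The steroid hormone ecdysone and the sesquiterpenoid juvenile hormone time the moults, and the fat body, which combines tasks of liver and adipose tissue, secretes storage proteins and immune peptides into the blood. In whole animals, fewer cells of a type and less RNA per cell cannot be told apart.

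Levels are given in RPM, the reads of a gene scaled to a common effective library size, and differences as log2 fold changes of mutant over control on log2(RPM + 1), which understates the change of genes near 1 RPM. A gene was called where limma gave an adjusted p under 0.05 over all 10459 genes. Mutant fasted libraries held 18648445 to 19594002 reads and control fasted libraries 17142412 to 18314699, so that 1 read stood for 0.0472 to 0.0591 RPM. *Erk7* itself (FBgn0052703, X chromosome, 9261376 to 9267698 in the release 6 assembly) had 7.59, 8.03, 5.14 and 7.88 RPM in mutants, against 7.67, 3.53, 1.83 and 9.73 RPM in controls. The groups overlapped (log2 fold change 0.46, SE 0.37, limma adjusted p = 0.334), and since a small deletion need not lower the transcript, this level does not check the labels. In fed larvae it was higher in mutants (log2 fold change 1.59, limma adjusted p = 0.00235). Fasted controls 2 and 3 were the lowest controls for *Erk7* and fasted mutant 3 the lowest mutant, as in the testis sums below. Whether the testis share took part in the *Erk7* level on either diet was not tested.

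The control fasted libraries were uneven in ways that touch several results below. Replicate 1 stood apart: across genes, the SD of its log2 difference was 0.533 to the other controls and 0.435 to the mutants, whereas the other 3 controls lay at 0.302 to 0.382 from their own group and 0.664 to 0.827 from the mutants. Replicates 2 and 3 held fewer testis transcripts than replicates 1 and 4. The summed level of 34 genes of testis differentiation was 492, 526, 358 and 549 RPM in mutants, against 357, 161, 121 and 329.6 RPM in controls. In fed larvae it was 392 to 597 RPM in mutants and 75.3 to 154 RPM in controls. Fasted controls 2 and 3 thus lay nearer to the fed controls than fasted controls 1 and 4 did. The 4 measured genes of dosage compensation and yolk, which differ between the sexes, summed to 26.4 to 27.9 RPM in mutants and to 26.1, 14.2, 12.9 and 25.7 RPM in controls, and controls 2 and 3 were again the lowest. As it adds genes of male dosage compensation to yolk genes of females, this sum is no measure of sex. Log2 fold changes of its members ran from -0.34 to 0.80. By contrast, the sum over 25 sarcomere genes was 59190 to 70706 RPM in mutants and 62123 to 73218 RPM in controls, with overlapping groups. Results are therefore also given without control 1, and without controls 2 and 3 together, a choice made after seeing the data. The second fit keeps control 1, which lay nearer to the mutants than to the other controls, as 1 of only 2 controls. Smaller differences and lost calls in it can follow from that choice for any gene group, so it is no independent check.

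**Figure D1:**
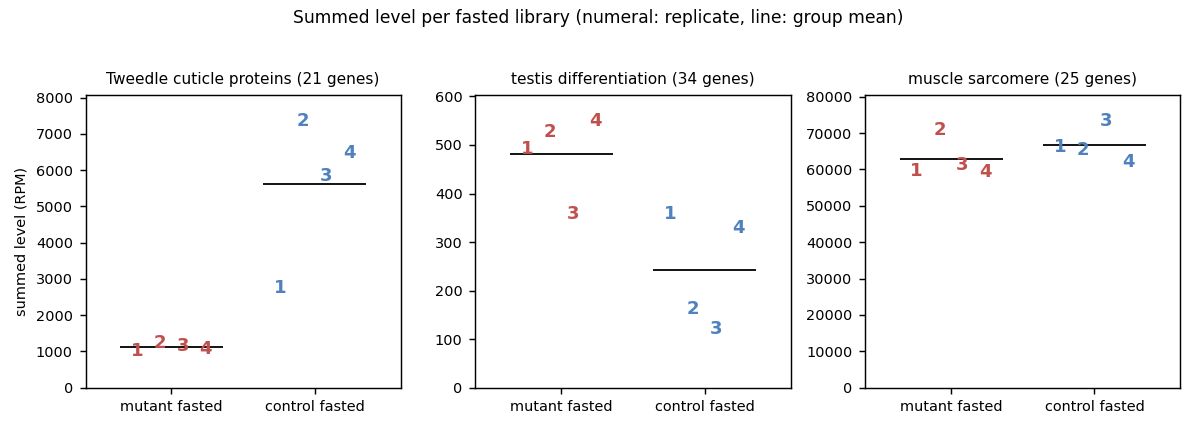
Summed level in RPM of the Tweedle cuticle protein genes, the testis genes and the sarcomere genes in each fasted library, with the replicate number as the symbol and the group mean as a line. Control replicate 1 holds 2764 RPM of Tweedle transcripts where the other controls hold 5847 to 7346 RPM, and controls 2 and 3 hold the least testis RNA, 161 and 121 RPM.

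In fasted mutants 2491 genes were higher than in fasted controls (23.8% of all genes) and 2187 were lower (20.9%), of which 402 and 290 differed by more than 2-fold. Counts of members of a gene group below are to be read against these 2 shares. Most genes named were chosen among called group members whose groups of libraries did not overlap, so that their lack of overlap follows from that choice, and 33.3% of all genes showed no overlap. Over all genes the median difference was 0.0035 on the log2 scale. Without control 1, 2688 genes were higher and 2243 lower, and 2378 and 2047 of these were among those called with all libraries. Without controls 2 and 3, which leaves 2 controls, 790 were higher (7.55%) and 1118 lower (10.7%), and counts of group members in that fit are to be read against these shares. In fed larvae, which share no library with this comparison but enter the same fit, 2675 genes were higher in mutants (25.6%) and 2715 lower (26%). Of the genes higher in fasted mutants 56.2% were also higher in fed mutants and 12.5% were lower there, and of the genes lower in fasted mutants 40.3% were lower and 9.10% higher in fed mutants. The 2 genotype differences were therefore compared directly, as an interaction, which was positive for 1903 genes (18.2%) and negative for 1435 (13.7%).

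**Figure D2:**
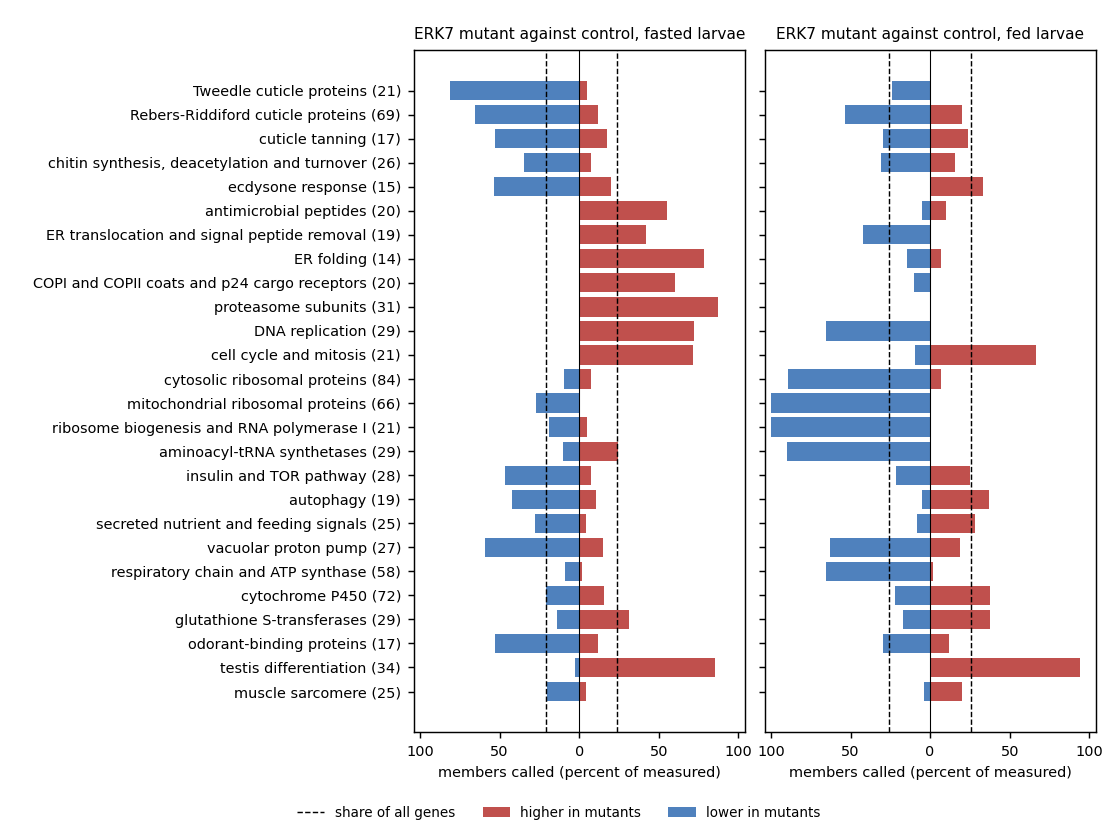
Share of the measured members of each gene group that was called higher (right) or lower (left) in mutants, in fasted larvae (left panel) and in fed larvae (right panel), with the number of measured genes in parentheses. Dashed lines mark the share among all genes, 23.8% higher and 20.9% lower in fasted larvae, and 27 of the 31 proteasome subunits are called higher in fasted and none in fed larvae.

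Genes of the larval cuticle were lower in fasted mutants. Tweedle proteins are secreted cuticle proteins that give the larva its shape, and of the 21 measured, 17 were lower and 1 higher, with a median log2 fold change of -2.22. The summed Tweedle level was 1014, 1242, 1142 and 1064 RPM in mutants, against 2764, 7346, 5847 and 6474 RPM in controls, so that the lowest control stood above the highest mutant. *TwdlN*, with *TwdlJ*, *TwdlK*, *TwdlM* and *TwdlP* in 1 cluster on chromosome arm 3R (26619118 to 26632956), had 31.6, 21.04, 26.6 and 21.3 RPM in mutants, against 335, 1685, 1962 and 1729 RPM in controls (log2 fold change -5.51, SE 0.43, limma adjusted p = 3.17e-06). *TwdlJ* had 0.283, 1.15, 0.967 and 1.02 RPM in mutants, against 12.95, 462, 365 and 321 RPM in controls. *TwdlM* had 1.98, 1.65, 2.49 and 1.499 RPM in mutants, against 5.66, 878, 445 and 516 RPM in controls. In these 3 genes every mutant lay below every control, and control 1 was the control nearest to the mutants. *TwdlBeta* was the exception that rose, with 6.37, 8.93, 11.5 and 10.2 RPM in mutants, against 4.44, 4.27, 5.26 and 6.37 RPM in controls (log2 fold change 0.74, limma adjusted p = 0.0016). Leaving out controls 2 and 3 gave 12 lower Tweedle genes. In fed mutants 5 were called lower, yet the summed level was 857 to 1237.5 RPM there, against 4287 to 4801 RPM in fed controls. Both tests share 1 estimate of the spread per gene, which includes the uneven fasted controls. *TwdlN* was lower in fed mutants as well (log2 fold change -4.56), and its interaction was not called (limma adjusted p = 0.238).

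The Rebers-Riddiford family, the large family of chitin-binding cuticle proteins, had 45 of 69 members lower and 8 higher (median log2 fold change -0.91), and 42 were lower without controls 2 and 3. In fed mutants 37 were lower and 14 higher (median -0.64), so the lower levels were not limited to fasted larvae. *Cpr64Ad* had 25.05, 3.39, 3.46 and 5.71 RPM in mutants, against 118, 538, 336 and 290.3 RPM in controls (log2 fold change -5.20, SE 0.55, limma adjusted p = 1.84e-05). *Lcp65Ag2* had 60.3, 63.8, 59.4 and 75.2 RPM in mutants, against 275, 619, 669 and 647 RPM in controls. In both, the mutants and controls did not overlap, and the log2 fold changes in fed larvae were -5.78 and -2.56. *Ccp84Ae*, from a cluster of family members on chromosome arm 3R (6686728 to 6702877), stood at 0.189, 0.199, 0.153 and 0.2901 RPM in mutants, which is 3 to 6 reads a library, and at 0.476, 349, 214 and 212 RPM in controls. Control 1 was thus close to the mutants, the difference was seen against the other 3 controls, and the call was lost with limma-voom (adjusted p = 0.509). In fed larvae *Ccp84Ae* was near 0 in both genotypes (at most 0.101 RPM in mutants and 0.324 RPM in controls). Larval cuticle genes of the same family also went the other way. *Lcp2* had 14.7, 19.6, 12.8 and 15.6 RPM in mutants, against 4.705, 2.85, 1.71 and 2.24 RPM in controls (log2 fold change 2.15, limma adjusted p = 4.51e-05). *Lcp4* had 12.2, 11.6, 13.1 and 11.2 RPM in mutants, against 4.65, 4.16, 5.44 and 5.296 RPM in controls. *Cpr47Eb* had 263, 215, 208 and 222 RPM in mutants, against 169.8, 122, 105 and 121 RPM in controls. These 3 were called higher with all libraries, without control 1 and without controls 2 and 3, and in fed mutants as well.

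Enzymes that pigment and harden the cuticle were lower for the most part. Of 17 tanning genes 9 were lower and 3 higher, and the genotype difference was more negative in fasted than in fed larvae for 10 of them. *yellow* (*y*), needed for black pigment, had 1.604, 1.396, 1.53 and 1.402 RPM in mutants, against 8.04, 53.7, 39.7 and 45.02 RPM in controls (log2 fold change -3.64, SE 0.46, limma adjusted p = 6.43e-05). *ebony* (*e*), which couples beta-alanine to dopamine for tan cuticle, had 2.59, 3.74, 3.11 and 2.66 RPM in mutants, against 6.24, 20.9, 23.8 and 18.9 RPM in controls (log2 fold change -2.06). *Ddc*, which makes dopamine from dopa, had 9.76, 13.5, 12.6 and 8.56 RPM in mutants, against 22.3, 60.8, 43.5 and 47.4 RPM in controls (log2 fold change -1.81). Control 1 was the lowest control in each of the 3. The 3 higher members were *PPO1*, *PPO2* and *yellow-e*. *PPO1* and *PPO2* encode prophenoloxidases, which crystal cells of the blood use for melanin. *PPO1* had 214, 231, 219 and 195 RPM in mutants, against 143, 112, 101 and 127 RPM in controls. *PPO2* had 387, 378, 408 and 314 RPM in mutants, against 253, 242, 219 and 235 RPM in controls. *yellow-e* had 25.8, 22.9, 19.2 and 20.7 RPM in mutants, against 11.3, 14.7, 17.3 and 12.2 RPM in controls.

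Chitin itself is made, deacetylated and taken apart by enzymes of which 9 of 26 were lower and 2 higher, and 4 and none without controls 2 and 3. The moulting chitinase *Cht5* had 10.4, 5.88, 7.43 and 6.33 RPM in mutants, against 27.1, 25.2, 34.9 and 16.2 RPM in controls (log2 fold change -1.64, SE 0.27, limma adjusted p = 0.000476). *Cht9* had 984, 648, 546 and 568 RPM in mutants, against 1913, 1317, 1927 and 1338 RPM in controls. The chitin deacetylase *Cda5* had 60.7, 58.1, 57.02 and 53.5 RPM in mutants, against 74.9, 146, 114 and 124 RPM in controls. The groups did not overlap for any of the 3. In fed mutants *Cht5* was lower too (log2 fold change -2.22), while *Cht9* (-0.46) and *Cda5* (-0.26) were not called. Of 25 peritrophin-like and mucin-like matrix genes, 10 were lower and 1 higher. Among them, *CG30101* had 0.283, 0.249, 0.204 and 0.193 RPM in mutants, against 2.27, 11.5, 6.56 and 7.28 RPM in controls (log2 fold change -2.53, limma adjusted p = 3.64e-05). *Mur18B* had 469.9, 414, 449 and 336 RPM in mutants, against 718, 860.4, 611 and 764 RPM in controls.

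Genes that answer to ecdysone were also lower, 8 of 15, with 3 higher, and without controls 2 and 3 there were 5 and 2. The interaction was negative for 9, and none was lower in fed mutants, where 5 were higher, *Eip74EF* among them (log2 fold change 0.87, limma adjusted p = 0.0486). The early gene *Eip74EF*, an Ets transcription factor, had 4.01, 3.49, 4.63 and 2.95 RPM in mutants, against 5.13, 20.03, 29.5 and 19.0 RPM in controls (log2 fold change -1.82, SE 0.35, limma adjusted p = 0.0013). The nuclear receptor gene *Hr4* had 1.42, 0.698, 1.53 and 1.26 RPM in mutants, against 2.06, 11.02, 6.38 and 7.44 RPM in controls (log2 fold change -1.65, limma adjusted p = 0.000667). Controls 2, 3 and 4 were well above all mutants in both genes, and control 1 was just above the highest mutant. For the early receptor gene *Eip75B* the groups were closer, with 34.1, 36.1, 37.8 and 32.7 RPM in mutants and 40.4, 44.4, 102 and 49.9 RPM in controls, and its call (log2 fold change -0.63, limma adjusted p = 0.0227) was lost without mutant 4 (-0.60, adjusted p = 0.0544). *br*, the Broad factor that specifies pupal fates, was higher, with 34.8, 32.96, 35.6 and 35.1 RPM in mutants, against 20.2, 19.3, 22.99 and 22.97 RPM in controls (log2 fold change 0.67, limma adjusted p = 0.00205). *Hr38*, a nuclear receptor gene, was also higher, with 10.9, 15.8, 13.8 and 8.66 RPM in mutants, against 7.88, 4.96, 4.79 and 6.26 RPM in controls. Of 9 genes of ecdysone synthesis 2 were higher and 0 lower, and the share higher was near the 23.8% of all genes. One of them, the hydroxylase gene *phm*, had 2.31, 2.44, 1.73 and 1.93 RPM in mutants, against 1.59, 1.27, 1.06 and 1.07 RPM in controls.

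Of 9 juvenile hormone genes 3 were higher and 4 lower (median -0.05), and both receptors were among the lower ones. *gce* had 39.5, 39.9, 39.6 and 42.5 RPM in mutants, against 52.1, 60.5, 70.8 and 56.4 RPM in controls (log2 fold change -0.55, SE 0.09, limma adjusted p = 0.000325). *Met* had 23.8, 20.1, 17.6 and 22.9 RPM in mutants, against 25.1, 29.9, 27.1 and 27.1 RPM in controls (log2 fold change -0.36, limma adjusted p = 0.0107). No mutant reached the lowest control in either gene, and the call of *Met* was lost without controls 2 and 3 (-0.30, adjusted p = 0.115). In the clock, *Clk*, the activator of the loop, was higher, with 2.69, 1.94, 1.78 and 2.85 RPM in mutants, against 1.16, 0.422, 0.414 and 0.815 RPM in controls (log2 fold change 0.97, limma adjusted p = 0.000296). Its repressor *vri* was lower, with 4.39, 2.99, 3.77 and 4.88 RPM in mutants, against 6.24, 6.96, 7.09 and 6.47 RPM in controls (log2 fold change -0.63, limma adjusted p = 0.00374), a call that was lost without controls 2 and 3 (-0.57, adjusted p = 0.0505). In fed mutants both were higher, *Clk* by 1.27 (limma adjusted p = 9.27e-06) and *vri* by 1.08 (limma adjusted p = 2.57e-05), so their opposite directions were not seen on that diet.

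Storage and defence proteins of the blood were higher in fasted mutants. The 3 genes of larval serum protein 1, the hexamerin that the fat body of the late larva stores for metamorphosis, were the 3 largest rises among genes above the median level. *Lsp1gamma* (chromosome arm 3L, 66430 to 68995) had 12890.0, 12845, 8842 and 12961 RPM in mutants, against 1236, 361, 557 and 356 RPM in controls (log2 fold change 4.42, SE 0.35, limma adjusted p = 3.17e-06). *Lsp1beta* (2L, 898500 to 901316) had 4482, 3893, 1669 and 3475 RPM in mutants, against 139, 3.43, 6.62 and 1.99 RPM in controls. *Lsp1alpha* (X, 12490291 to 12492982) had 187, 290.1, 58.9 and 152 RPM in mutants, against 1.64, 0.5798, 0.650 and 0.662 RPM in controls, and its call was lost with limma-voom (7.48, adjusted p = 0.107). The groups lay far apart in all 3, control 1 was the highest control in each and mutant 3 the lowest mutant. All 3 were also higher in fed mutants, by 1.85, 2.46 and 6.96 on the log2 scale. The 3 copies are similar in sequence and reads could be shared between them. Of the 2 measured fat body markers, the apolipoprotein gene *Rfabg* was higher by 0.34 (limma adjusted p = 0.000777), a call lost after quantile normalization (0.23, adjusted p = 0.06001), and *AkhR* was not called (-0.11, limma adjusted p = 0.426), except without control 1 (-0.24, adjusted p = 0.0428).

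Antimicrobial and related immune peptides, which the fat body releases on infection or stress under Toll and Imd signalling, had positive log2 fold changes in all 20 measured members, and 11 of them were called, against 23.8% of all genes. The median log2 fold change was 1.44. Their summed level was 1099, 1081, 4266 and 616 RPM in mutants, against 207, 386, 70.7 and 272 RPM in controls. Mutant 3 stood far above the other mutants, and the highest control remained below the lowest mutant. Without mutant 3, 9 were called, and without control 1, 8. *IM2*, a Toll-induced short peptide of the Bomanin family, had 68.2, 73.6, 429 and 35.1 RPM in mutants, against 1.11, 2.85, 2.60 and 3.26 RPM in controls (log2 fold change 4.82, SE 0.52, limma adjusted p = 2.11e-05). *IM1* had 92.97, 36.9, 254 and 28.1 RPM in mutants, against 1.53, 9.28, 1.005 and 19.6 RPM in controls. *IM14*, which encodes Daisho, had 10.6, 9.47, 44.5 and 9.33 RPM in mutants, against 0, 0.264, 0.177 and 3.06 RPM in controls. The antifungal peptide gene *Drs* had 846, 869, 907 and 455 RPM in mutants, against 179.9, 229, 40.5 and 155 RPM in controls (log2 fold change 2.54, SE 0.40, limma adjusted p = 0.000315). No control reached the mutants for these 4 genes. In fed larvae all 4 were low in both genotypes. *Drs* had 0.354 to 0.414 RPM in fed mutants and 0.0528 to 0.517 RPM in fed controls, and *IM2* was called higher there, with 1.31 to 2.41 RPM in mutants, against 0.0528 to 0.216 RPM in controls.

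Of 12 measured genes of peptidoglycan recognition and the Turandot stress family 3 were higher and 3 lower, and 2 were higher and 1 lower without controls 2 and 3. Their summed level was uneven among the mutants, at 2783, 369, 547 and 2827 RPM, against 237, 539, 333 and 323 RPM in controls, and the Turandot genes were not called. *PGRP-SD*, an extracellular sensor of peptidoglycan, had 15.1, 11.6, 28.2 and 11.9 RPM in mutants, against 4.55, 3.005, 3.31 and 3.82 RPM in controls (log2 fold change 1.85, limma adjusted p = 6.47e-05). The Toll-side sensor *PGRP-SA* had 12.1, 9.03, 8.298 and 9.86 RPM in mutants, against 6.92, 5.904, 4.67 and 5.35 RPM in controls. *PGRP-LF*, a membrane inhibitor of Imd signalling, was lower, with 14.1, 11.7, 12.2 and 15.1 RPM in mutants, against 25.6, 36.7, 19.4 and 28.7 RPM in controls (log2 fold change -0.98, limma adjusted p = 0.00105), but higher in fed mutants (0.46, limma adjusted p = 0.0476). Beyond the lists, and chosen after their values were seen, 3 more secreted blood proteins were higher. The iron-binding transferrin *Tsf1* had 606, 532, 974 and 359 RPM in mutants, against 136, 231, 147 and 136 RPM in controls. The thioester proteins *Tep2* and *Tep4*, relatives of complement, were among them. *Tep2* had 799, 557, 691 and 826 RPM in mutants, against 161, 374, 172 and 208 RPM in controls. *Tep4* had 458, 235, 464 and 211 RPM in mutants, against 99.9, 100.1, 108 and 68.8 RPM in controls. The blood cell markers *Hml*, *Pxn* and *NimC1* were not called, and *Hml* (-0.30, limma adjusted p = 0.085) became lower without mutant 2 (-0.38, adjusted p = 0.0452) or without mutant 3 (-0.40, adjusted p = 0.03).

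**Figure D3:**
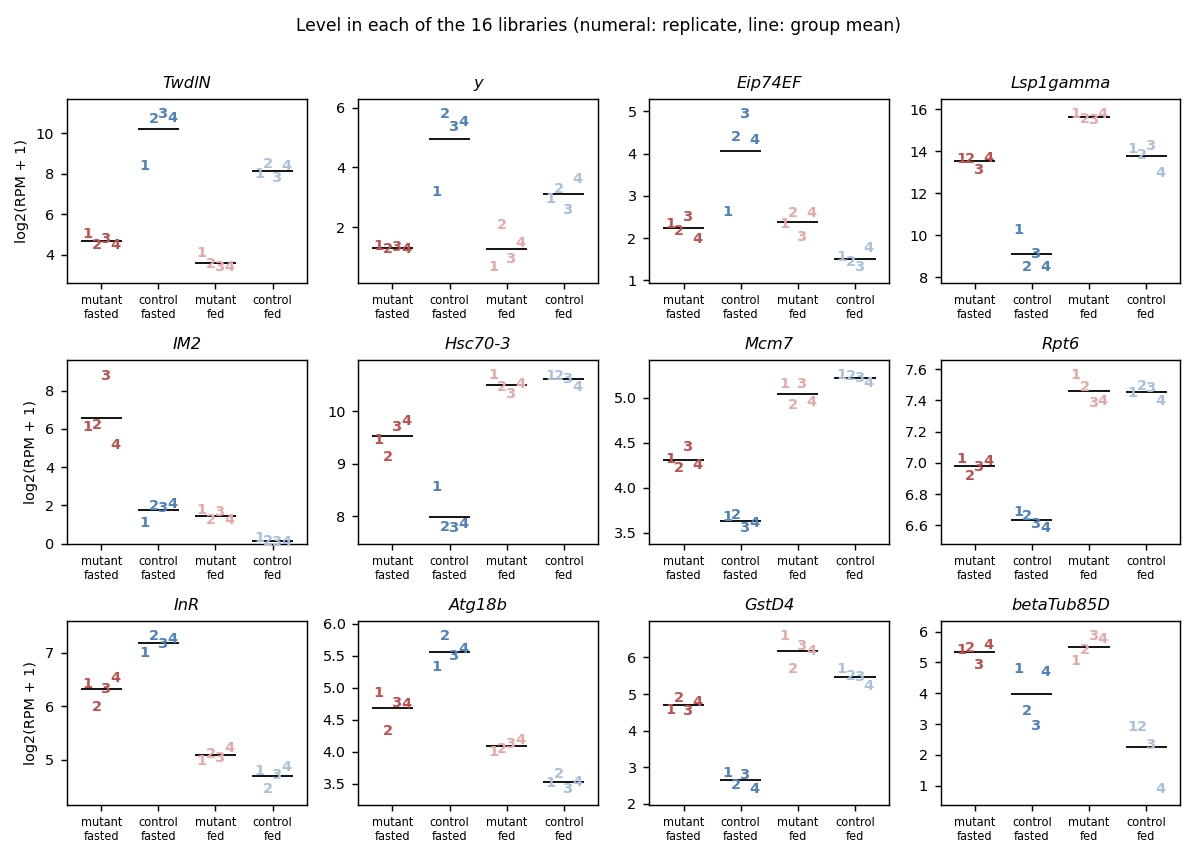
Level of 12 genes in each of the 16 libraries as log2(RPM + 1), each panel with its own axis, with the replicate number as the symbol and the group mean as a line. *TwdlN* and *y* stand lower and *Lsp1gamma* and *Hsc70-3* higher in all 4 fasted mutants than in any fasted control, and fasted control 1 lies nearest to the mutants in these 4 panels.

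Proteins enter the secretory pathway at the ER, where chaperones fold them before coated vesicles carry them to the Golgi, and genes of these steps were higher in fasted mutants. Of 14 folding genes 11 were higher and 0 lower (median log2 fold change 0.61). *Hsc70-3*, the ER chaperone BiP, had 697, 559, 833 and 897 RPM in mutants, against 376, 219.7, 217 and 231 RPM in controls (log2 fold change 1.53, SE 0.17, limma adjusted p = 2.72e-05). *Gp93*, its partner of the Hsp90 family, had 679, 491, 695 and 855 RPM in mutants, against 355, 205, 182 and 177 RPM in controls (log2 fold change 1.59). The lectin chaperone *Cnx99A* had 187, 248, 284 and 275 RPM in mutants, against 150.1, 88.98, 87.2 and 103 RPM in controls. The disulphide isomerase *Pdi* had 1147, 1062, 1258 and 1330.5 RPM in mutants, against 746, 631, 586 and 576 RPM in controls. All mutants were above all controls for the 4 genes, and control 1 was the highest control in each. In fed larvae, *Hsc70-3* had 1294 to 1649.8 RPM in mutants and 1405 to 1642 RPM in controls, with overlap.

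Of 19 genes for translocation and signal peptide removal, 8 were higher and 0 lower. *TRAM*, a translocon protein, had 169, 164, 188 and 199 RPM in mutants, against 149, 123, 98.9 and 108 RPM in controls (log2 fold change 0.60, limma adjusted p = 0.0015). Of 20 genes of the vesicle coats and cargo receptors, 12 were higher and 0 lower. Among them, *Sec24CD*, the cargo adaptor of the vesicles that leave the ER, had 133, 127, 169.7 and 152 RPM in mutants, against 116, 103, 103 and 92.6 RPM in controls (log2 fold change 0.48, limma adjusted p = 0.00128). The coat subunit gene *beta'COP* had 169, 154, 185 and 177 RPM in mutants, against 145, 134, 129 and 126 RPM in controls. These differences were small, since no member of the coat list passed 0.48 on the log2 scale. In fed mutants no gene for translocation was higher and 8 were lower, and 2 coat genes were lower. The interaction was positive for 11, 8 and 10 genes of translocation, folding and coats, and negative for none. The ER stress sensor gene *PEK* was higher, with 84.5, 116, 99.8 and 80.6 RPM in mutants, against 62.1, 59.8, 71.2 and 61.1 RPM in controls (log2 fold change 0.57, limma adjusted p = 0.000696), and of the 7 stress signalling genes measured 2 were higher and 1 lower. There were 7 folding, 5 translocation and 5 coat genes called higher without controls 2 and 3.

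Of 13 genes of the heat shock families, which include *Hsc70-3* above and chaperonins of the mitochondrial type, 7 were higher and none lower, and 4 were higher without controls 2 and 3. *Hsp83*, the cytosolic Hsp90, had 748, 1154, 1153 and 759.8 RPM in mutants, against 531, 276, 289 and 438 RPM in controls (log2 fold change 1.33, SE 0.20, limma adjusted p = 0.000218). In fed mutants it was lower (log2 fold change -0.75, limma adjusted p = 0.00537), and the interaction was 2.09 (limma adjusted p = 8.57e-05). Among the others called were *Hsp60B* and *Hsp60C*, with roles in male germ cells. *Hsp60C* had 29.2, 29.3, 21.5 and 28.6 RPM in mutants, against 19.3, 6.80, 3.605 and 16.1 RPM in controls, lowest in controls 2 and 3 as the testis genes were. Its call was lost when mutant 1, 2 or 4 or control 2 or 3 was left out (adjusted p up to 0.0909).

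The proteasome, which degrades proteins tagged with ubiquitin, had small differences of the same sign throughout. All 31 measured subunits had positive log2 fold changes, of 0.08 to 0.41, and 27 were called higher, against 23.8% of all genes. None passed an added minimum of 0.5 on the log2 scale. The ATPase subunit gene *Rpt6* had 129, 119.9, 125 and 128 RPM in mutants, against 102, 100.3, 96.5 and 94.7 RPM in controls (log2 fold change 0.35, SE 0.05, limma adjusted p = 0.000286). The scaffold subunit gene *Rpn2* had 143, 132, 149 and 143 RPM in mutants, against 113, 105, 115 and 100.1 RPM in controls. The core subunit gene *Prosalpha6* had 97.5, 90.3, 87.9 and 89.7 RPM in mutants, against 75.9, 68.9, 75.2 and 56.4 RPM in controls. The groups did not overlap for these 3 genes, nor for 27 of the 31 in all, where 16.3% of all genes had every mutant above every control. The count was 17 without controls 2 and 3. In fed larvae none was called in either direction (median log2 fold change -0.03), and the interaction was positive for 18.

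DNA replication genes were higher in fasted mutants, 21 of 29, and none was lower (median log2 fold change 0.51). All 29 had positive log2 fold changes. *Mcm7*, a subunit of the replicative helicase, had 18.96, 17.7, 20.9 and 18.1 RPM in mutants, against 11.8, 11.9, 10.7 and 11.2 RPM in controls (log2 fold change 0.68, SE 0.07, limma adjusted p = 1.45e-05). *RnrL*, the large subunit of ribonucleotide reductase, had 22.3, 24.8, 27.2 and 25.6 RPM in mutants, against 17.4, 14.4, 13.4 and 14.1 RPM in controls. The sliding clamp gene *PCNA* had 26.9, 24.9, 23.2 and 23.9 RPM in mutants, against 18.9, 13.8, 14.1 and 15.3 RPM in controls. In fed mutants 19 of the 29 were lower and none higher, and the interaction was positive for 25. *RnrL*, for example, had 51.96 to 58.7 RPM in fed mutants and 72.98 to 85.1 RPM in fed controls.

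Regulators of the cell cycle were higher as well, 15 of 21, with none lower, and here fed mutants also had 14 higher, with 2 lower. *CycB*, the mitotic cyclin, had 12.8, 16.1, 15.2 and 14.2 RPM in mutants, against 8.78, 6.80, 7.09 and 9.06 RPM in controls (log2 fold change 0.81, SE 0.10, limma adjusted p = 4.54e-05). The mitotic kinase *polo* had 31.4, 35.3, 28.6 and 30.1 RPM in mutants, against 20.6, 15.9, 13.7 and 20.9 RPM in controls. *fzy*, which activates the anaphase-promoting complex, had 16.8, 17.9, 14.9 and 18.3 RPM in mutants, against 11.2, 6.96, 7.56 and 10.4 RPM in controls. Controls 2 and 3 were the lowest controls in all 3 genes, as they were in testis RNA. Without them 10 cell cycle genes and 16 replication genes were called, with medians of 0.40 and 0.37. Whether the testis share took part in these differences was not tested.

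Genes of the translation machinery had small differences between the fasted groups and larger ones between the fed groups. Of 21 genes of ribosome biogenesis and RNA polymerase I, 1 was higher and 4 were lower in fasted mutants (median log2 fold change -0.14), whereas all 21 were lower in fed mutants (median -1.37). The interaction was positive for 20 of them. The nucleolar gene *bys*, needed for the small ribosomal subunit, had 20.8, 22.9, 22.4 and 18.95 RPM in fasted mutants, against 24.7, 25.99, 24.6 and 25.8 RPM in fasted controls (log2 fold change -0.24, limma adjusted p = 0.0148), a call lost without controls 2 and 3 at the same difference (-0.24, adjusted p = 0.0893). In fed larvae it had 21.5 to 26.1 RPM in mutants and 56.1 to 61.6 RPM in controls. *nclb*, which encodes the fly PWP1 and promotes rRNA synthesis, had 29.7, 39.3, 43.6 and 33.6 RPM in fasted mutants, against 38.4, 41.1, 36.1 and 42.2 RPM in fasted controls, with overlap (log2 fold change -0.12, limma adjusted p = 0.406). Its difference in fed larvae was -1.43 (limma adjusted p = 2.15e-07), and the interaction was 1.31 (limma adjusted p = 4.06e-05). *Non1*, a GTPase that acts on the large subunit, was lower by a similar amount on both diets. It had 83.6, 86.6, 88.9 and 74.6 RPM in fasted mutants, against 127, 160.0, 147 and 139 RPM in fasted controls (log2 fold change -0.77, SE 0.07, limma adjusted p = 7.78e-06), and its log2 fold change in fed larvae was -0.69.

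Mitochondrial ribosomal proteins had 18 of 66 genes lower and none higher in fasted mutants (median -0.12), 7 without controls 2 and 3, and 66 of 66 lower in fed mutants (median -0.81). Among these, *mRpL39* had 40.1, 37.4, 42.5 and 35.9 RPM in fasted mutants, against 58.3, 55.5, 59.2 and 50.8 RPM in fasted controls. Cytosolic ribosomal protein genes had 8 of 84 lower and 6 higher in fasted mutants and 75 lower in fed mutants, with medians of -0.10 and -0.47. The interaction was positive for 49, and the 8 lower ones are a smaller share than the 20.9% of all genes. Without controls 2 and 3, 3 were lower and 1 was higher. Of 29 aminoacyl-tRNA synthetases 7 were higher and 3 lower when fasted, and 26 were lower when fed, and without controls 2 and 3 there were 1 and 1. *MetRS* had 68.2, 68.3, 76.1 and 71.7 RPM in fasted mutants, against 56.1, 49.02, 46.4 and 52.05 RPM in fasted controls (log2 fold change 0.48, limma adjusted p = 0.000144), and 88.6 to 101 RPM in fed mutants, against 136 to 147 RPM in fed controls. It thus stood on opposite sides of the controls on the 2 diets. Of 53 initiation, elongation and release factors 12 were higher and 7 lower, and without controls 2 and 3 these were 2 and 1.

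**Figure D4:**
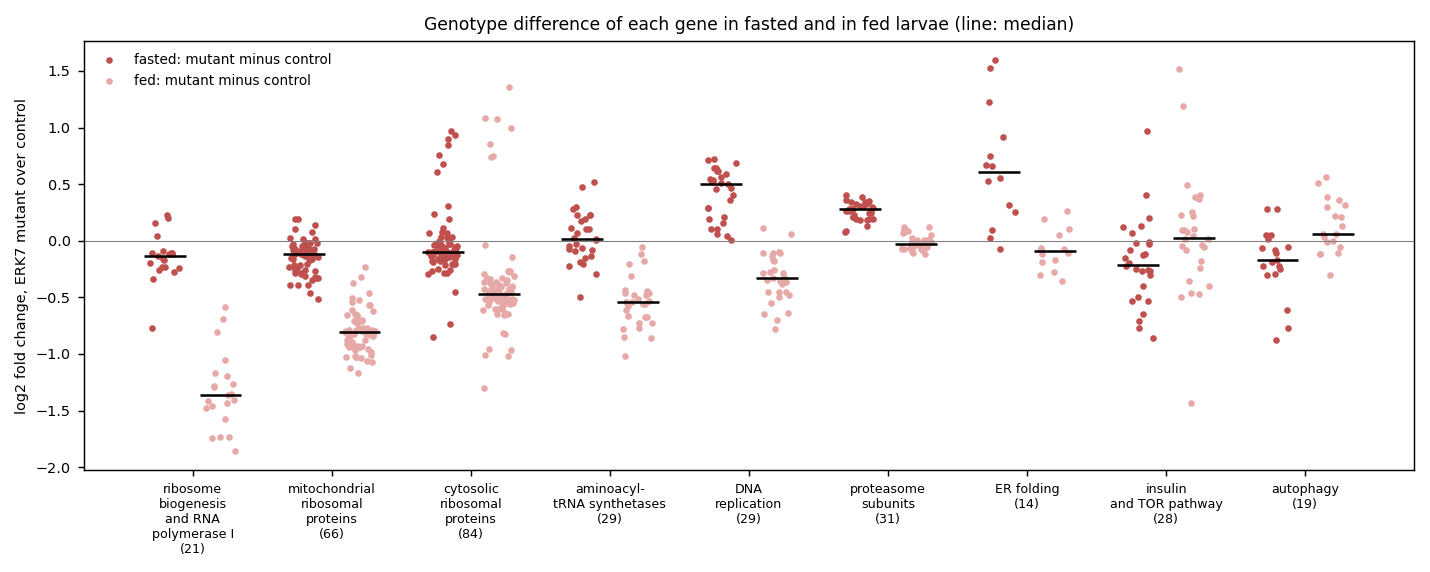
Log2 fold change of mutant over control for each gene of 9 groups, in fasted larvae (dark points) and in fed larvae (pale points), with the group median as a line and the number of genes in parentheses. Ribosome biogenesis genes have a median of -0.14 in fasted and -1.37 in fed larvae, and DNA replication genes 0.51 and -0.33.

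Genes of insulin and TOR signalling, through which food sets growth, were lower in fasted mutants, 13 of 28, with 2 higher (median -0.21). The insulin receptor gene *InR*, which FOXO induces when insulin is low, had 84.95, 62.7, 79.2 and 91.5 RPM in mutants, against 126, 158, 142 and 152 RPM in controls (log2 fold change -0.86, SE 0.12, limma adjusted p = 0.00011). In fed larvae *InR* was higher in mutants, by 0.39 (limma adjusted p = 0.012), and the interaction was -1.25 (limma adjusted p = 7.22e-05). *REPTOR*, a transcription factor that TOR holds in the cytoplasm, had 41.04, 30.96, 37.1 and 42.6 RPM in mutants, against 51.8, 61.9, 71.8 and 65.6 RPM in controls (log2 fold change -0.71), and was likewise higher in fed mutants. *Ilp6*, the insulin-like peptide of the fat body, had 36.3, 33.1, 30.4 and 37.1 RPM in mutants, against 43.3, 62.1, 66.1 and 67.7 RPM in controls (log2 fold change -0.77, limma adjusted p = 0.00162). It too was higher in fed mutants (log2 fold change 1.19, limma adjusted p = 1.87e-05). No fasted mutant reached the lowest fasted control in these 3 genes.

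The insulin-like peptides of the brain did not move together. *Ilp2* had 6.56, 7.43, 6.06 and 5.75 RPM in mutants, against 6.45, 7.75, 5.61 and 6.57 RPM in controls, with overlap (log2 fold change -0.03, limma adjusted p = 0.851). *Ilp3* was lower, with 0.708, 0.548, 0.356 and 0.725 RPM in mutants, against 1.37, 1.32, 1.42 and 1.02 RPM in controls, which is 7 to 15 reads a library in mutants and 20 to 26 in controls. *Ilp5* overlapped between groups, with 0.755, 0.997, 1.48 and 1.31 RPM in mutants and 1.06, 0.791, 0.295 and 0.356 RPM in controls (log2 fold change 0.41, limma adjusted p = 0.0423). Its call was lost when mutant 2, 3 or 4 or control 3 or 4 was left out, with an adjusted p up to 0.133. *Ilp8*, a signal from growing or damaged discs to the brain that delays metamorphosis, had 2.22, 2.49, 5.396 and 4.88 RPM in mutants and 0.7401, 1.05, 2.48 and 1.32 RPM in controls (log2 fold change 0.97, limma adjusted p = 0.00535), and 1 other gene shares exon bases with it on the same strand. *ImpL2*, a secreted antagonist of the insulin-like peptides, had 62.8, 44.7, 61.7 and 40.6 RPM in mutants, against 66.98, 96.1, 75.3 and 89.8 RPM in controls (log2 fold change -0.65, limma adjusted p = 0.0315), also with an overlapping gene on the same strand. That call was lost when mutant 2 or 4 or control 2 or 4 was left out, with an adjusted p up to 0.0921.

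Autophagy genes were lower, 8 of 19, with 2 higher. In fed mutants 7 were higher and 1 lower, and the interaction was negative for 9 and positive for none. The initiating kinase gene *Atg1* had 34.2, 27.2, 35.7 and 29.4 RPM in mutants, against 42.02, 56.7, 65.8 and 56.4 RPM in controls (log2 fold change -0.77, SE 0.13, limma adjusted p = 0.000437). Its complex partner *Atg101* had 36.9, 33.5, 34.98 and 37.1 RPM in mutants, against 51.4, 57.03, 59.6 and 51.5 RPM in controls (log2 fold change -0.61). *Atg18b*, a phosphoinositide-binding protein, had 29.1, 18.9, 26.1 and 25.7 RPM in mutants, against 39.2, 54.9, 44.1 and 47.8 RPM in controls (log2 fold change -0.88), and was higher in fed mutants (0.57, limma adjusted p = 0.0011). The fasted groups did not overlap in these 3 genes. Without controls 2 and 3, 8 insulin and TOR genes and 3 autophagy genes were called lower.

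Sugar sensing was represented by *sug* (sugarbabe), a transcription factor that dietary sugar induces through Mondo and its partner bigmax. It was higher in fasted mutants, with 5.61, 12.3, 21.3 and 13.9 RPM, against 3.28, 2.37, 2.305 and 2.75 RPM in controls (log2 fold change 1.84, SE 0.25, limma adjusted p = 0.000127). The mutants varied by several fold and all lay above the controls. In fed larvae *sug* had 17.8 to 24.5 RPM in mutants and 18.01 to 22.2 RPM in controls, with overlap, and its exons share bases with CG13319 on the same strand. *Mondo* was not called (-0.07, limma adjusted p = 0.507), and *bigmax* was lower by a little (-0.35, limma adjusted p = 0.00795), a call that was lost without controls 2 and 3. In the pentose phosphate pathway, which makes NADPH, *Pgd* had 114, 237, 188 and 122 RPM in mutants, against 85.7, 58.98, 69.5 and 58.8 RPM in controls (log2 fold change 1.21, limma adjusted p = 0.000434). *Taldo* had 152, 164, 192 and 179 RPM in mutants, against 127, 130.0, 142 and 103 RPM in controls, and was lower in fed mutants (log2 fold change -0.29, limma adjusted p = 0.0224). Of 15 genes of glycolysis and this pathway 3 were higher and none lower, and of 9 genes of trehalose, glycogen and gluconeogenesis none was called. The glucosidase gene *tobi*, known as a target of both insulin and adipokinetic hormone, had 254, 251, 279.9 and 205 RPM in mutants, against 395, 363, 342 and 345 RPM in controls (log2 fold change -0.55, limma adjusted p = 0.023). Its call was lost without mutant 4 (adjusted p = 0.0696) or without control 2 (adjusted p = 0.0503).

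Among 25 secreted signals of nutrition and feeding, 7 were lower and 1 higher, where 20.9% and 23.8% of all genes were. In fed mutants 7 were higher and 2 lower, the interaction was negative for 7 (13.7% of all genes) and positive for none (18.2%), and 4 were lower in fasted mutants without controls 2 and 3. *Akh*, the adipokinetic hormone that mobilizes stores, had 4.01, 3.94, 4.58 and 5.03 RPM in mutants, against 5.76, 6.80, 5.32 and 7.44 RPM in controls (log2 fold change -0.44, limma adjusted p = 0.0106). *sNPF*, a neuropeptide that promotes feeding, had 13.3, 13.5, 14.7 and 14.7 RPM in mutants, against 18.6, 21.3, 19.8 and 20.9 RPM in controls (log2 fold change -0.49, limma adjusted p = 0.000667). Neither gene overlapped between the groups. Of 18 amino acid transporters 3 were higher and 5 lower, and without controls 2 and 3, 2 were lower. *gb* (genderblind), a transporter known from glia, had 28.5, 31.1, 28.7 and 25.97 RPM in mutants, against 17.1, 15.9, 12.5 and 13.8 RPM in controls (log2 fold change 0.91, SE 0.08, limma adjusted p = 7.32e-06). The glutamate transporter *Eaat1* had 34.5, 26.2, 37.7 and 30.3 RPM in mutants, against 20.99, 21.7, 21.2 and 21.7 RPM in controls. Of 12 genes of serine, methionine and asparagine metabolism 3 were higher and 3 lower. The asparagine synthetase gene *AsnS* had 38.9, 29.02, 97.7 and 69.5 RPM in mutants, against 23.7, 20.3, 22.4 and 28.5 RPM in controls, and its call (limma adjusted p = 0.00536) was lost without controls 2 and 3 (0.99, adjusted p = 0.0668).

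In the gut, of 23 trypsin-like and chymotrypsin-like genes 2 were higher and 6 lower, where 23.8% and 20.9% of all genes were. *lambdaTry* had 68.3, 54.5, 62.3 and 54.2 RPM in mutants, against 163, 149, 155 and 123 RPM in controls (log2 fold change -1.29, SE 0.11, limma adjusted p = 4.01e-06). *alphaTry*, fixed as a midgut marker, had 255, 269.6, 251 and 209.7 RPM in mutants, against 463, 454, 475 and 460.2 RPM in controls (log2 fold change -0.91). *Jon99Cii* was higher, with 1449, 1769.5, 1535 and 1344 RPM in mutants, against 768, 678, 828 and 677 RPM in controls (log2 fold change 1.04, limma adjusted p = 0.000966). Of 17 carbohydrate-digesting enzymes 2 were higher and 2 lower, whereas 10 were higher in fed mutants.

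The vacuolar proton pump, which acidifies lysosomes and the lumen of secretory epithelia, had 16 of 27 subunit genes lower and 4 higher. The proteolipid gene *Vha16-1* had 2725, 2972, 3160.4 and 3257 RPM in mutants, against 3902, 3997, 3828 and 3700.0 RPM in controls (log2 fold change -0.35, SE 0.06, limma adjusted p = 0.000979). The membrane subunit gene *Vha100-5* had 288, 255, 262 and 281 RPM in mutants, against 412, 437, 395 and 340.5 RPM in controls. The 4 higher members were *Vha68-3*, *VhaAC39-2*, *Vha100-3* and *Vha16-5*, low-level paralogues, of which the last 3 were chosen after their values were seen and *Vha100-3* lost its call without mutant 2 or 4 or control 3. *Vha68-3* had 9.62, 10.3, 5.85 and 9.67 RPM in mutants, against 4.39, 2.53, 1.77 and 5.14 RPM in controls. In the first 3, controls 2 and 3 were the lowest controls, and in all 4 mutant 3 was the lowest mutant, as in the testis sums. Whether the testis share took part in them was not tested. Without controls 2 and 3, 3 genes were called lower and 1 higher, with only the 8 fasted libraries in the fit 8 were lower, and after quantile normalization 10. Respiratory chain and ATP synthase genes had 5 of 58 lower and 1 higher when fasted, and 38 lower when fed, while *COX5B* had 195, 208, 134 and 166 RPM in fasted mutants, against 239, 230.0, 263 and 223 RPM in fasted controls. No gene of this list was called by limma without controls 2 and 3.

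Detoxification families had no common direction. Of 72 cytochrome P450 genes 11 were higher and 15 lower, of 29 glutathione S-transferases 9 and 4, and of 29 UDP-glucuronosyltransferases 5 and 5. There were 7 P450 genes higher and 7 lower without controls 2 and 3. *Cyp4d14* had 102, 263, 167 and 115 RPM in mutants, against 26.8, 20.4, 24.8 and 28.1 RPM in controls (log2 fold change 2.55, SE 0.29, limma adjusted p = 3.10e-05). *Cyp28d2* was lower, with 108, 138, 58.3 and 118 RPM in mutants, against 254, 311, 314 and 250.3 RPM in controls (log2 fold change -1.47, limma adjusted p = 0.000602). Within the delta class of the transferases, *GstD4* had 22.7, 28.9, 22.1 and 26.5 RPM in mutants, against 6.18, 4.69, 5.97 and 4.28 RPM in controls (log2 fold change 2.06, SE 0.17, limma adjusted p = 4.01e-06). *GstD6* had 16.5, 19.3, 17.8 and 19.9 RPM in mutants, against 5.23, 4.01, 3.84 and 4.89 RPM in controls. *GstD2* had 180.2, 148, 169 and 146 RPM in mutants, against 54.8, 68.7, 70.97 and 65.5 RPM in controls. The groups did not overlap for these genes, and the delta genes are similar enough that reads could be shared. Odorant-binding proteins, small carriers secreted around sensory hairs and other epithelia, had 9 of 17 lower and 2 higher, and 4 lower without controls 2 and 3. *Obp99d* had 0.708, 0.199, 0.865 and 0.387 RPM in mutants, against 3.86, 4.797, 6.62 and 5.602 RPM in controls (log2 fold change -2.02, limma adjusted p = 4.05e-05).

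Testis transcripts were mostly called higher in fasted mutants. Controls 2 and 3 were singled out for their low testis RNA, so that a smaller difference without them follows from that choice. Of 34 genes 29 were higher and 1 lower with all libraries (median 0.99), and 1 higher and 1 lower without controls 2 and 3 (median 0.46). The sperm tail tubulin gene *betaTub85D*, a defining testis marker, had 41.1, 43.5, 29.02 and 46.6 RPM in mutants, against 26.9, 9.75, 6.68 and 25.1 RPM in controls (log2 fold change 1.37, SE 0.46, limma adjusted p = 0.0258). Without controls 2 and 3 its log2 fold change was 0.59 (adjusted p = 0.382), and the call was also lost when mutant 1, 2 or 4 or control 2 or 3 was left out (adjusted p up to 0.0882). Testis paralogues of respiratory chain and proteasome subunits shared this pattern, with 12 of 14 and 7 of 9 higher with all libraries and none of either without controls 2 and 3, where medians were 0.38 and 0.30 and 7.55% of all genes were called higher. The male X-chromosome RNA *roX2* had 2.08, 2.24, 1.78 and 2.998 RPM in mutants and 1.85, 0.474, 0.355 and 1.12 RPM in controls, with overlap (log2 fold change 0.80, limma adjusted p = 0.013). In fed larvae 32 of the 34 testis genes were higher in mutants, and *betaTub85D* had 32.02 to 56.8 RPM in mutants and 0.845 to 6.54 RPM in controls. What sets controls 2 and 3 apart from controls 1 and 4 in testis RNA was not tested.

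Defining markers of other tissues were mostly not called. This held for all 5 muscle markers, with log2 fold changes of -0.15 to -0.03, for the 3 blood cell markers and for both markers of the Malpighian tubule, while 1 of 3 salivary gland markers was lower, 1 of 3 germ cell markers higher and 1 of 2 midgut markers, *alphaTry* above, lower. Of 4 neuronal markers, *elav* had 31.8, 33.7, 33.4 and 35.2 RPM in mutants, against 30.6, 33.9, 32.03 and 37.5 RPM in controls (log2 fold change 0.0046, limma adjusted p = 0.96), and 1 gene shares exon bases with it on the same strand. Of the others, *nSyb* and *brp* were not called and *Syt1*, the calcium sensor of synaptic vesicles, was higher, with 41.3, 25.6, 25.8 and 37.3 RPM in mutants, against 15.1, 13.3, 14.3 and 14.9 RPM in controls (log2 fold change 1.09, SE 0.14, limma adjusted p = 6.57e-05). In the wider list of 11 neuronal genes *Syt1* was the one higher gene and 5 were lower (median -0.18), which was also the count without controls 2 and 3. The tracheal regulator *trh* was lower, with 18.1, 15.6, 20.6 and 14.8 RPM in mutants, against 20.7, 35.3, 23.5 and 25.2 RPM in controls, and 1 gene shares exon bases with it on the same strand. The other tracheal marker, *btl*, was not called. In the tubule the phosphate transporter *NaPi-T*, not a defining marker, had 58.3, 55.7, 58.95 and 55.6 RPM in mutants, against 91.7, 87.2, 75.7 and 94.4 RPM in controls (log2 fold change -0.60, limma adjusted p = 4.81e-05).

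Among the other MAP kinase genes, *p38c* was higher, with 21.7, 18.9, 18.1 and 15.1 RPM in mutants, against 7.19, 5.27, 5.26 and 7.69 RPM in controls (log2 fold change 1.41, SE 0.12, limma adjusted p = 4.10e-06). It encodes a p38-type stress kinase of the gut, and it was higher in fed mutants as well, by 0.81. *p38b* was slightly lower, with 75.0, 72.7, 74.99 and 73.9 RPM in mutants, against 82.4, 84.6, 90.8 and 81.4 RPM in controls (-0.19, limma adjusted p = 0.00673), and this call was lost without controls 2 and 3 (adjusted p = 0.102). Neither *rl*, which encodes the fly ERK, nor *bsk*, which encodes JNK, was called, and both were chosen after their values were seen.

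Several of the largest differences lay in genes of no group above. *CG2233* differed by much more than its spread, with 431, 425, 416 and 389 RPM in mutants, against 1951, 1916, 1647 and 2106 RPM in controls (log2 fold change -2.19, SE 0.08, limma adjusted p = 3.29e-10), and its log2 fold change in fed larvae was -0.81. *CG10182* had 284, 256, 259 and 227 RPM in mutants, against 39.1, 19.5, 7.80 and 18.03 RPM in controls (log2 fold change 3.74, limma adjusted p = 6.16e-06). *CG13360* had 93.5, 110.2, 162 and 87.6 RPM in mutants, against 26.7, 5.904, 13.1 and 10.4 RPM in controls. For both, the fed groups overlapped, with log2 fold changes of 0.41 and -0.34. *vanin-like*, a predicted amidase of the pantetheinase type, had 110.2, 209, 203 and 162 RPM in fasted mutants, against 57.7, 25.2, 30.2 and 29.6 RPM in fasted controls (log2 fold change 2.26, SE 0.23, limma adjusted p = 1.45e-05). In fed larvae it had 65.4 to 97.5 RPM in mutants, against 272 to 312 RPM in controls, so that the order of the genotypes was the opposite and the interaction was 4.10 (limma adjusted p = 2.32e-06). *CG14569* had 9.01, 5.04, 4.89 and 5.71 RPM in mutants, against 59.4, 234, 409.7 and 287 RPM in controls (log2 fold change -4.86), and an element on the same strand shares its exon bases. The remaining genes among the 15 largest rises and 15 largest falls above the median level, leaving out 2 of lipid storage, were *CG10081*, *CG32249* and *CG16775*, with log2 fold changes of 1.95 to 2.22, the last losing its call without controls 2 and 3, and *CG13051*, *CG32266*, *CG13047*, *CG34268*, *CG13068*, *CG13059*, *TwdlP*, *Ccp84Ad*, *Ccp84Ag* and *Cpr65Av*, with -4.13 to -2.23.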

How the data were processed

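RNA of whole larvae was sequenced in 16 libraries, 4 for each genotype on each diet. The authors trimmed reads with Trimmomatic, aligned them with TopHat2 (2.1.0) and counted them per FlyBase gene with HTSeq (2.7.6). They deposited these counts as a signal scaled to RPM, with library sizes adjusted by TMM. Dividing by the step of each library gave whole reads for 100% of values (tolerance 0.01), on which edgeR (4.0.16) and DESeq2 (1.42.0) were run as alternatives. The 19 deposited columns of the study's own comparisons (means, coefficients, t, F and p-values) were not used.

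Values were tested as log2(RPM + 1) with limma (3.58.1, R 4.3.3), with 1 mean per group fitted to the 16 libraries, two-sided p-values being adjusted over 10459 genes by the method of Benjamini and Hochberg. The fit was tried on simulated counts with the same dispersion for every gene and no deviating library. That run checks the code and cannot show how the fit handles the uneven libraries here. Nothing states that libraries of a group came from separate cultures or broods, so p-values measure the spread between these libraries. Replicates of a group differed by more than sampling noise (chi-square per degree of freedom 20.4 to 51.1), and nothing states that their numbers pair the samples. Leaving out libraries, other scalings, filters and thresholds were tried as alternatives.

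The 54 gene lists, the rules and the members were chosen with earlier results of these data known. Genes named were *Erk7*, the 15 largest differences each way above the median level without overlap, up to 4 called members each way per list without overlap, and tissue markers, *Mondo*, *sug*, *nclb* and insulin-like peptides whatever their values. Another 12 were chosen after their values were seen. Genes of the lipid lists are not described. Positions are those of a release 6 annotation, which held 10305 of the genes, not shown to be the one used for counting.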

Additional observations from a re-analysis of the deposited data

Results flagged for a closer look

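The genotype difference, mutant over control on the log2 scale, was itself compared between diets, and for 90 of the 147 genes named the interaction of genotype and diet passed an adjusted p under 0.05 in limma. It was positive for 50 and negative for 40, and each value in parentheses is the fasted minus the fed difference. Among cuticle and tanning genes, it was positive for *TwdlBeta* (0.80) and *Lcp4* (0.57), and negative for *TwdlK* (-4.13), *TwdlP* (-1.50), *Ccp84Ae* (-5.62), *y* (-1.83), *e* (-1.60), *Ddc* (-1.16), *yellow-e* (-0.81), *PPO1* (-0.48), *PPO2* (-0.41), *Cda5* (-0.69), *CG30101* (-1.36) and *Mur18B* (-0.71). Among genes of ecdysone, juvenile hormone and the clock, it was positive for *Hr38* (0.63) and *phm* (0.51), and negative for *Eip74EF* (-2.70), *Hr4* (-1.40), *Eip75B* (-0.90), *br* (-0.60), *Met* (-0.45) and *vri* (-1.71). Among storage and immune genes, it was positive for *Lsp1beta* (5.72), *Lsp1gamma* (2.57), *Rfabg* (0.24), *IM1* (3.29), *IM2* (3.50), *IM14* (3.26), *Drs* (2.35), *Tep2* (0.92) and *Tep4* (1.95), and negative for *PGRP-SA* (-0.55), *PGRP-LF* (-1.43) and *Hml* (-0.57). Among genes of the ER, the coats and chaperones, it was positive for *Hsc70-3* (1.64), *Gp93* (1.76), *Cnx99A* (1.52), *Pdi* (0.66), *PEK* (0.60), *Sec24CD* (0.67), *beta'COP* (0.50), *TRAM* (0.84) and *Hsp83* (2.09), and negative for *Hsp60B* (-1.51). Among proteasome and replication genes, it was positive for *Prosalpha6* (0.48), *Rpn2* (0.45), *Rpt6* (0.34), *Mcm7* (0.86), *RnrL* (1.22) and *PCNA* (1.13). Among genes of translation, it was positive for *bys* (1.04), *mRpL39* (0.66), *MetRS* (1.04) and *nclb* (1.31). Among genes of nutrient signalling, autophagy and metabolism, it was positive for *Ilp8* (0.95), *sug* (1.79), *Pgd* (1.50), *Taldo* (0.75), *gb* (0.95) and *Eaat1* (0.64), and negative for *InR* (-1.25), *Ilp3* (-0.62), *Ilp6* (-1.96), *REPTOR* (-1.21), *ImpL2* (-1.05), *Atg1* (-0.66), *Atg18b* (-1.45), *Atg101* (-0.31), *AkhR* (-0.61) and *tobi* (-1.65). Among genes of gut, proton pump and detoxification, it was positive for *Cyp4d14* (2.50), *GstD4* (1.34) and *GstD6* (1.26), and negative for *Vha100-5* (-0.37) and *alphaTry* (-0.58). Among the remaining genes, it was positive for *p38c* (0.60), *p38b* (0.20), *CG10182* (3.32), *CG13360* (3.41), *vanin-like* (4.10), *ap* (0.65), *CG16775* (1.96), *CG13068* (1.48) and *bsk* (0.28), and negative for *betaTub85D* (-1.89), *NaPi-T* (-0.29), *CG2233* (-1.38), *lin-28* (-1.68), *CG32249* (-3.55) and *rl* (-0.68).

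In 32 of 294 groups of 4 fasted libraries, 1 library lay so far from the other 3 that its gap, as a share of the range of the group, passed Dixon's critical value, where chance gives about 1 in 20 groups. The value in parentheses is that share of the range. Fasted control 1 was the lowest of its group for *TwdlJ* (0.896), *TwdlK* (0.86), *TwdlM* (0.861), *TwdlN* (0.914), *Ccp84Ae* (0.909), *Lcp65Ag2* (0.912), *y* (0.835), *CG13051* (0.855), *CG32266* (0.853), *CG34268* (0.91), *CG13068* (0.847), *TwdlP* (0.867) and *Ccp84Ad* (0.897). Fasted mutant 3 was the lowest of its group for *Erk7* (0.872), *Lsp1gamma* (0.977), *Vha68-3* (0.881), *Vha16-5* (0.866) and *Hsp60C* (0.917). Fasted mutant 1 was the highest of its group for *TwdlK* (0.908), *CG32266* (0.857) and *CG13068* (0.858). Fasted control 1 was the highest of its group for *Lsp1alpha* (0.901) and *Hsc70-3* (0.889). Fasted control 4 was the lowest of its group for *Tep4* (0.834) and *Mondo* (0.863). Fasted mutant 3 was the highest of its group for *IM14* (0.924) and *Ccp84Ad* (0.865). Fasted control 2 was the highest of its group for *Tsf1* (0.852). Fasted control 4 was the highest of its group for *IM14* (0.833). Fasted mutant 1 was the lowest of its group for *TwdlJ* (0.83). Fasted mutant 4 was the highest of its group for *gce* (0.873). Fasted mutant 4 was the lowest of its group for *Drs* (0.899). Control 1 was thus the lowest in 13 and the highest in 2 of these groups.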

How the results depend on the processing

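Of the 147 genes named, 135 were called, and 126 had a value under all 20 listed alternatives and the 1 added, of which 99 kept their direction and their side of the threshold. The filter on low levels or DESeq2 gave no value for the other 21, of which 11 kept both under the alternatives they had. None changed sign while called. *TwdlK* lost its call with limma-voom (-7.64, adjusted p = 0.204). Of 2268 counts of list members under these alternatives, 343 moved by more than 1.5 times. With each fasted library left out in turn, 1670 to 2688 genes were higher and 1727 to 2243 lower in fasted mutants, 2656 to 2726 were higher and 2692 to 2815 lower in fed mutants, and the interaction was positive for 1695 to 1924 and negative for 1134 to 1724. Leaving out controls 2 and 3 together, added after seeing the data, gave 790 higher and 1118 lower in fasted larvae with 2 controls in the fit. With only the 8 fasted libraries in the fit, so that fed libraries did not enter the spread, 1714 were higher and 1696 lower. Without the lowest 25% of genes by level, a smaller set, 1620 genes were higher in fasted and 1562 in fed mutants. An adjusted p under 0.01 left 1225 higher and 1348 lower in fasted larvae, and interactions of 1264 genes positive and 614 negative. A log2 fold change over 0.5 in size left 1397 higher and 867 lower in fasted larvae, 1714 higher and 1245 lower in fed larvae, and 1179 positive interactions. On recovered reads, edgeR called 2156 higher and 2149 lower and DESeq2 2250 and 2251 in fasted larvae. Taking the replicate number as a block for pairing gave 2370 and 2165. The deviations of same-numbered fasted mutants and controls correlated at -0.21 to 0.23, with 2 of 4 pairs over 0.1. Differently numbered libraries were not correlated for reference, so these values cannot decide whether the numbers mark a shared batch. Depth limited genes at a few reads, such as *Ccp84Ae* at 3 to 6 reads in mutants, whose fitted difference depends on the pseudocount.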

Other observations

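Some genes of disc patterning and developmental timing, which belonged to no list and were chosen after their values were seen, also separated the fasted groups. *dsx* (doublesex), the sex determination factor, had 5.61, 5.83, 5.75 and 6.09 RPM in mutants, against 2.38, 1.48, 2.78 and 1.53 RPM in controls (log2 fold change 1.19, SE 0.12, limma adjusted p = 1.32e-05), and its log2 fold change in fed larvae was 1.13. *rn* (rotund), a zinc finger factor of leg and wing discs, had 5.85, 4.69, 3.92 and 4.69 RPM in mutants, against 1.43, 1.42, 1.65 and 1.32 RPM in controls (log2 fold change 1.23, limma adjusted p = 6.89e-06). *ap* (apterous), the selector of the dorsal wing compartment, had 16.2, 14.2, 14.2 and 16.1 RPM in mutants, against 8.62, 8.33, 7.68 and 8.199 RPM in controls (log2 fold change 0.81, limma adjusted p = 4.10e-06). All 3 were higher in every fasted mutant than in any fasted control. In the other direction, *lin-28*, an RNA-binding regulator of developmental timing and stem cells, had 1.04, 0.648, 0.713 and 0.8704 RPM in mutants, against 3.17, 5.85, 7.33 and 5.14 RPM in controls (log2 fold change -1.77, SE 0.15, limma adjusted p = 4.10e-06). The interaction of genotype and diet was -1.68 for *lin-28* (limma adjusted p = 5.07e-05), and the fed groups overlapped (log2 fold change -0.09). In fed larvae *lin-28* was near 0 in both genotypes, at 0 to 0.0575 RPM in mutants and 0.0528 to 0.162 RPM in controls. A genotype difference on that diet could therefore hardly be measured.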
